A study of Mus musculus with 8 samples.

Results

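The livers of control mice are described here, as measured in the 4 libraries of the study that carried a control virus and no hairpin against a studied gene. All 24062 gene entries of the 4 count tables were taken, the same entries as in all 8 libraries of the series, and the 13767 of them with enough counts were tested. Total RNA from whole liver was depleted of ribosomal RNA and sequenced. All mice were lean wild-type C57BL/6 mice, injected with 0.1 OD of adenovirus, which infects mainly the liver, and killed 1 week later after 6 h without food. The lacZ1 group (2 libraries, mice of 3 months) was the control of a virus against Dnajb9, and the lacZ2 group (2 libraries, mice of 4 months) was the control of a virus against Rictor. Age and control group are therefore the same split, and the effects of age and of the separate experiment cannot be told apart. The labels do not state whether the lacZ virus expressed lacZ or a hairpin against it, nor whether the libraries of a group were separate animals, so p-values measure only the spread between these samples, which may be technical. The shDnajb9 libraries (3 months) and shRictor libraries (4 months), 2 of each, enter below as a second pair of the same ages.

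The liver parenchyma is made of hepatocytes, which secrete most plasma proteins, store and release glucose, build fatty acids and cholesterol, and clear ammonia and foreign compounds. Hepatocytes along the lobule divide this work, with urea synthesis and gluconeogenesis stronger near the portal vein and drug-metabolising cytochrome P450 enzymes and glutamine synthesis stronger near the central vein. Kupffer cells, sinusoidal endothelium, stellate cells and bile duct cells make up most of the remainder.

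Replicates 1 and 2 of lacZ1 had 9791933 and 7830716 counts on genes, and those of lacZ2 had 6727294 and 10464225. Between 16363 and 16840 entries had at least 1 count in a control library. Reads outside any gene made up 32.25% of the counted reads in lacZ2 replicate 1 and 23.04% to 26.64% in the other 3. The RNA of ribonuclease P, Rpph1, took 4.26% of the gene counts of lacZ2 replicate 1 and 1.13% to 1.76% of the others, and the ribosomal precursor Rn45s took 2.60% against 0.822% to 1.22%. This library stood apart from the others in many genes as well, and results are given with and without it. The hairpin targets were present in every control. Dnajb9, an endoplasmic reticulum co-chaperone, had 30.6 and 38.0 CPM in lacZ1 against 40.3 and 38.7 CPM in lacZ2, and Rictor, a subunit of mTOR complex 2, had 65.4 and 68.7 against 52.3 and 65.1 CPM. CPM are counts per 1000000 gene counts after TMM scaling, which sets libraries to a trimmed mean of their gene ratios.

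Levels in control liver were uneven over genes, and most of the 20 highest genes encode secreted proteins. Levels are compared between genes as counts per 1000000 gene counts and kb of exon, without TMM scaling (CPM per kb). On this scale, 192 genes held more than 50% of the summed level, and 38 genes had a mean above 1000. Counted cumulatively, 605 genes had a mean above 100 CPM per kb, 5703 above 10 and 12329 above 1, while 5951 entries had no count in any of the 4 libraries. Values of single genes follow in the order lacZ1 replicates 1 and 2, then lacZ2 replicates 1 and 2.

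Albumin, Alb, the main carrier protein of plasma, had the highest level of any protein-coding gene, with 14867, 18666, 7555 and 15562 CPM per kb. The lacZ2 library of replicate 1 held less Alb than the other 3, which lay close together. Apoe, an apolipoprotein of remnant lipoproteins, showed the same order with 5654, 6541, 3092 and 6281. Transthyretin, Ttr, a carrier of thyroid hormone and retinol-binding protein, had its 2 lacZ2 libraries between the lacZ1 libraries, at 2882, 4179, 3085 and 3349. Apoa1, the main protein of high-density lipoprotein, had 3121, 3693, 3392 and 2760, and its groups overlapped too.

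Other plasma carriers among the 20 highest genes bind iron, heme, hemoglobin or vitamin D. Hemopexin, Hpx, which binds heme, had 3647, 4171, 3010 and 4025 CPM per kb. The vitamin D-binding protein Gc had 3445, 4388, 2630 and 4337. Haptoglobin, Hp, which binds free hemoglobin, had 3304, 3190, 2410 and 3653. These 3 genes were lowest in lacZ2 replicate 1, although by less than Alb. Transferrin, Trf, which carries iron, had a mean of 4366, and Ftl1, a chain of the intracellular iron store ferritin, a mean of 5869, but 59.4% and 58.4% of their 50-base stretches also occur in other genes, so their levels are uncertain. Apoa2 (mean 2693), Ambp (mean 1719), which encodes a precursor of alpha-1-microglobulin and bikunin, and the selenium carrier Sepp1 (mean 2042) completed the secreted proteins outside the major urinary proteins. Of these last, pheromone carriers of urine, Mup20 had 5214, 7550, 5904 and 7350, with 50.5% of its stretches shared.

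Genes of other roles were fewer among the 20. Gstm1, a glutathione transferase, had a mean of 2976, Cyp3a11, a drug-metabolising P450, a mean of 2176, and Gpx1, a glutathione peroxidase, a mean of 2164. The elongation factor Eef1a1 (mean 2020, 40.4% shared) and the cytoskeletal actin Actb (mean 1881) stood next to them. Rpph1 led the list with 35371, 55282, 133477 and 43476, and Rmrp, the RNA of ribonuclease MRP, had 5193, 6922, 7914 and 7007. Both are short noncoding RNAs of ribonucleoprotein enzymes, and 68.1% and 95.7% of their stretches occur elsewhere. All 20 genes stayed among the 20 highest without lacZ2 replicate 1, and 16 of them did so when counts were not divided by length.

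**Figure D1:**
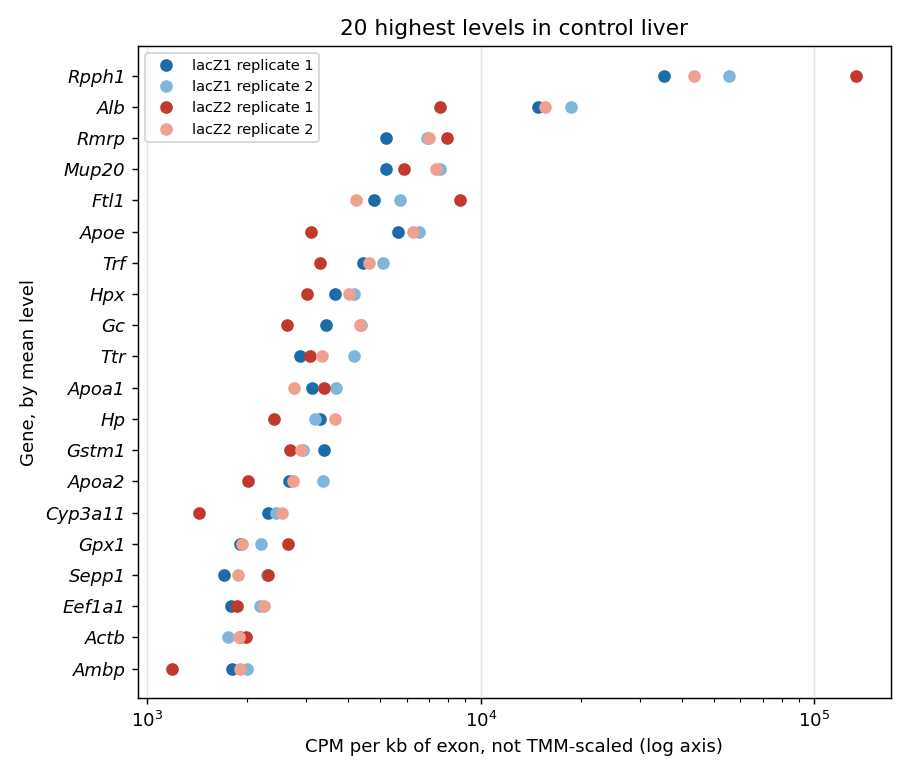
The level of the 20 highest genes (CPM per kb of exon, log axis) is shown for each of the 4 control libraries, 1 point per library, with genes ordered by their mean. Rpph1 lies highest and Alb follows, and lacZ2 replicate 1 lies to the right of the others for Rpph1 (133477) and to the left for Alb (7555).

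Promoter sequences show how differently built genes of this profile begin. The 3 stretches printed here, the 250 bases before the RefSeq start on build GRCm38.p6, belong to the most abundant coding gene and to 2 of the hepatocyte genes with the largest ratios between the lacZ2 libraries. Capitals mark an HNF1-type match (GTTAATNAT, either strand), a C/EBP-type match (TTGCNNAA, either strand) or a TATAAA box on the gene's strand that begins 40 to 20 bases before the start. No match overlapped another.
Alb: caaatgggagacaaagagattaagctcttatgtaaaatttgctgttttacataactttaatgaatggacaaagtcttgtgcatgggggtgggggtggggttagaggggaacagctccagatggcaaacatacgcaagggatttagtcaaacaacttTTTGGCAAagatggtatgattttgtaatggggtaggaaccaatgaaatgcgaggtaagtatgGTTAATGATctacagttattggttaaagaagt
Cyp2e1: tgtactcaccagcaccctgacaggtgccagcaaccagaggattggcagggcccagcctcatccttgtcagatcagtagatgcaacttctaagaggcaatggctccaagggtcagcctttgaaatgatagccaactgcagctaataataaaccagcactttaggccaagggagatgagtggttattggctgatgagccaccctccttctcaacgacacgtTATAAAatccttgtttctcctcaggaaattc
Oat: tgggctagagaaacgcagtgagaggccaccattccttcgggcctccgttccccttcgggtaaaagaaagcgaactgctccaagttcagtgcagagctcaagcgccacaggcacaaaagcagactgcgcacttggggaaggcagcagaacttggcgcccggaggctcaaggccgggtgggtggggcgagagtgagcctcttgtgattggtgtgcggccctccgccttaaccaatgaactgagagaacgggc
The window of Alb, chr5:90460620-90460869 on the plus strand, held an HNF1-type match beginning 32 bases before the start and a C/EBP-type match beginning 94 before it, with 3 CG dinucleotides in the 300 bases that run to 50 bases past the start. In GENCODE the Alb gene starts at 90460897, downstream of this window, so its distances and its lack of a TATAAA box hold for the RefSeq start only. Cyp2e1, chr7:140763569-140763818 on the plus strand, had a TATAAA box 31 bases before its start and 4 CG dinucleotides. Oat, chr7:132576399-132576648 on the minus strand, held none of these matches and 22 CG dinucleotides. Of the 100 coding genes with the highest level, 71 had windows in the RefSeq table, 83 windows in all. HNF1-type matches occurred in 4 of them (4.82%) and in 0.801% of all 32851 windows, and C/EBP-type matches in 16 (19.3%) against 10.8%. TATAAA boxes occurred in 4 (4.82%) against 1.99%, and an HNF4-type match (CAAAGTCCA, either strand) in only 1 (1.20%) against 0.475%. Windows of the cytosolic ribosomal proteins, which are also abundant, had a median of 21 CG dinucleotides and no HNF1-type match in 74 windows. Those of plasma carriers and protease inhibitors had a median of 4 CG dinucleotides and HNF1-type matches in 4 of 37 windows (10.8%). HNF4-type matches ran the other way, in 2 ribosomal protein windows (2.7%) and 0 of plasma carriers and protease inhibitors. A match describes letters in a window and not binding.

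Gene lists by function, chosen with results of these libraries already known, gave the same picture in shares of gene counts. Plasma carriers and protease inhibitors (36 genes) took 10.8% and 13% of the gene counts in lacZ1 and 7.25% and 11.9% in lacZ2. Coagulation and complement genes (40) took 2.85%, 2.83%, 1.86% and 2.93%. Cytosolic ribosomal proteins (83) took 1.87%, 2.20%, 2.89% and 2.00%, and the nuclear-encoded respiratory chain (82) 1.08%, 1.28%, 1.25% and 1.18%. The secreted protein lists were lowest and the ribosomal protein list was highest in lacZ2 replicate 1.

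Markers of hepatocytes were high in all 4 libraries, and most of those of other cell types were lower, apart from Cd5l. Cps1, the first enzyme of the urea cycle, had 535, 591, 238 and 463 CPM per kb, and the hepatocyte transcription factor Hnf4a 186, 214, 188 and 212. Among Kupffer cell genes, Cd5l had 318, 374, 385 and 348, Clec4f 42.3, 53.4, 64.5 and 41.9, and Vsig4 10.7, 13.02, 8.41 and 8.54, while Timd4 stayed under 0.5. The Kupffer cell and macrophage list as a whole took 0.283%, 0.296%, 0.321% and 0.307% of the gene counts. Sinusoidal endothelium was present through Stab2 (27.4, 24.0, 22.8 and 23.9), Clec4g (16.9, 26.5, 26.8 and 23.3) and Lyve1 (9.99, 13.7, 16.2 and 10.8). Stellate cell genes were detected in all 4 libraries, with Colec11 at 14.95, 20.8, 23.9 and 21.4, Reln at 8.78, 7.56, 8.35 and 7.62 and Lrat at 4.62, 5.44, 8.67 and 8.86. In whole tissue, fewer cells of a type and less RNA per cell cannot be told apart.

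Most defining genes of circulating and duct cells had low levels. Alas2 lay above the others, as did Cd3g except in lacZ2 replicate 1, where S100a9 was higher than Cd3g. The T cell genes Cd3e (2.03, 1.57, 1.73 and 2.35) and Cd3g (7.59, 5.99, 3.34 and 10.1) were detected in every library, and Trbc2 had no entry. The natural killer genes Ncr1 and Klrb1c, the B cell gene Ms4a1 and the bile duct genes Krt19, Krt7 and Epcam stayed near or below 1, with Cd79a at a mean of 1.59. The 13 neutrophil markers took 0.0302%, 0.0237%, 0.0345% and 0.0198% of the gene counts, most in lacZ2 replicate 1, and the defining ones did not share an order. Ngp (5.18, 1.05, 2.68 and 0.547) and Ltf (4.52, 0.638, 1.49 and 0.512) were highest in lacZ1 replicate 1, and S100a8 (0.420, 1.05, 1.22 and 0) and S100a9 (4.50, 1.22, 7.69 and 2.56) in lacZ2 replicate 1. Hba-a1 and Hbb-bs had 0 counts in each control library, whereas Alas2, the erythroid enzyme of heme synthesis, had 23.1, 25.5, 27.7 and 25.3. A count of 0 allows up to 3 counts where reads can be assigned to the gene. Reads without a unique alignment, 22.88% to 24.88% of those counted in the controls, were not assigned. Whether this holds for the globin genes was not tested, so their 0 counts do not show absence. The 15 exocrine pancreas markers took 0.00135%, 0.0036%, 0.00199% and 0.0014% of the gene counts, most in lacZ1 replicate 2. There Cela2a had 32 counts against 2, 0 and 2, Cpa1 15 counts against 0, 0 and 0, and Prss2 7 against 1, 0 and 0. The labels give no sex, and all 4 libraries held the Y-linked Ddx3y (13.8, 19.02, 21.5 and 16.9) with 0 to 6 counts of Xist, the RNA of the inactive X chromosome.

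No gene could be called different between control livers of 4 months and those of 3 months. With edgeR's quasi-likelihood test and Benjamini-Hochberg adjustment over 13767 genes, 0 genes passed an adjusted p of 0.05 in either direction (0%), and the smallest adjusted p was 0.607. At an unadjusted p under 0.05 there were 98 higher and 71 lower genes, 169 in all or 1.23% of those tested. Where no gene differs, a share near 0.05 is expected under that threshold. DESeq2 called 1 gene and limma-voom 0. The median log2 fold change was -0.01. The 95% confidence interval of a gene had a median half-width of 0.62 on the log2 scale. It lay wholly within a 2-fold change in either direction for 9979 genes (72.5%) and within a 1.5-fold change for 1885 (13.7%). A change larger than 2-fold therefore lay outside the interval for most genes, and a change under 1.5-fold could seldom be judged at this depth and number of libraries. Both lacZ2 libraries lay above both lacZ1 libraries in 1609 genes (11.7%) and below them in 1372 (9.97%). If the control libraries were interchangeable, such separation in either direction would be expected in a share of 0.333 of genes. These counts alone therefore show no group difference, and with 2 libraries a group they do not show its absence.

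**Figure D2:**
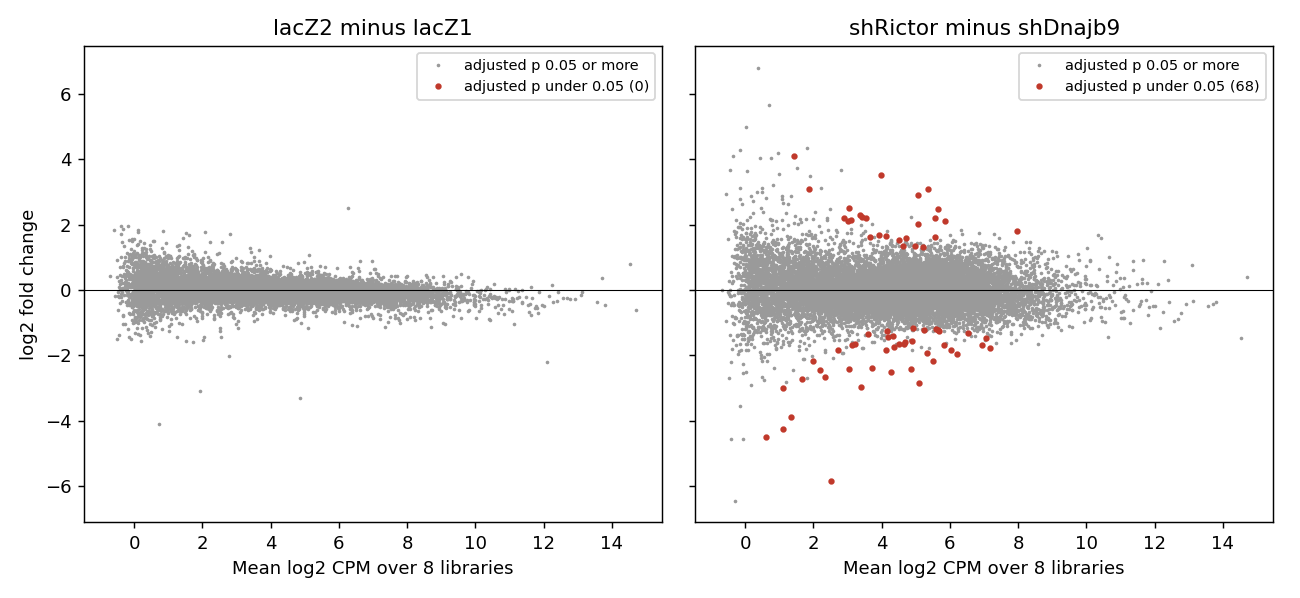
Each point is 1 of 13767 genes, with its mean log2 CPM over the 8 libraries on the horizontal axis and its log2 fold change on the vertical axis, for lacZ2 minus lacZ1 on the left and shRictor minus shDnajb9 on the right. Red marks genes with an adjusted p under 0.05, of which the left panel has 0 and the right panel 68.

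The genes nearest to the threshold are named here after their values were seen, and none passed it. Kcnk1, a potassium leak channel (chromosome 8, 125995170 to 126030685, plus strand, GRCm38), had 6.38 and 7.98 CPM in lacZ1 against 0.697 and 0.930 CPM in lacZ2. The groups did not overlap, and lacZ2 was lower by a log2 fold change of -3.09 with a standard error of 0.52 (edgeR, adjusted p = 0.607). DESeq2 gave an adjusted p of 0.00444 for Kcnk1, and the fit to the 4 control libraries alone gave 0.0313. The hairpin libraries spanned the gap, with 2.72 and 1.83 CPM in shDnajb9 and 2.00 and 5.96 in shRictor.

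Got1, the cytosolic aspartate aminotransferase, had 115 and 149 CPM in lacZ1 against 52.3 and 68.0 CPM in lacZ2, a log2 fold change of -1.13 with a standard error of 0.28. Scd1, the stearoyl-CoA desaturase that makes monounsaturated fatty acids, had 3803 and 4342 CPM in lacZ1 against 1028 and 740 CPM in lacZ2, a log2 fold change of -2.20 with a standard error of 0.68. The groups of Scd1 did not overlap, and the fit to the 4 control libraries alone did not call it either (edgeR, adjusted p = 0.943). In the hairpin libraries Scd1 had 3529 and 8380 CPM in shDnajb9 and 2183 and 11370 CPM in shRictor. The unadjusted edgeR p was 0.00125 for Got1 and 0.00694 for Scd1. Fst, which encodes the activin antagonist follistatin, had 14.3 and 13.9 against 7.44 and 7.78 CPM, and the insulin-degrading enzyme Ide 139 and 144 against 65.5 and 98.3 CPM. For shRictor minus shDnajb9 the log2 fold change was -1.33 for Fst (edgeR, adjusted p = 0.0483), -0.62 for Got1 and -0.23 for Ide. It was 0.19 for Scd1 and 0.88 for Kcnk1.

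In the other direction, Krt23, a keratin, had 7.08 and 8.94 CPM in lacZ1 against 22.1 and 13.8 CPM in lacZ2, a log2 fold change of 1.16 with a standard error of 0.29. The acute phase gene Saa3 had 31.6 and 34.0 against 67.0 and 50.7 CPM. Themis, known from T cell development, had 8.86 and 10.01 against 18.1 and 15.5 CPM. The unadjusted edgeR p was 0.00154 for Krt23, 0.00311 for Saa3 and 0.00474 for Themis, and the adjusted p was 1 for each. Plat, the tissue plasminogen activator, had 5.84 and 5.24 against 23.1 and 7.78 CPM, and Myo5c, a myosin, 2.21 and 2.15 against 11.9 and 3.04 CPM. In these last genes, Plat and Myo5c, the higher lacZ2 value came from replicate 1. For shRictor minus shDnajb9 the log2 fold change was 2.23 for Krt23, 1.36 for Saa3 and 0.75 for Themis. It was -0.70 for Plat and -0.24 for Myo5c. In that pair, where age and hairpin target go together, Krt23 and Saa3 were called (edgeR, adjusted p = 0.0169 and 0.0389).

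Some lists of liver metabolism had negative medians with and without lacZ2 replicate 1, and others did not keep their sign. No list had a called member. In lipogenesis, 14 of 23 tested members were lower in both lacZ2 libraries than in both lacZ1 libraries and 0 were higher, with a median log2 fold change of -0.48, against 9.97% lower, 11.7% higher and a median of -0.01 over all genes. Besides Scd1, Fasn, the fatty acid synthase, had 732 and 454 CPM in lacZ1 against 316 and 258 CPM in lacZ2. Elovl6, which lengthens fatty acids, had 85.2 and 117 against 44.3 and 66.6 CPM, and Acss2, which makes acetyl-CoA from acetate, had 88.4 and 104 against 38.0 and 69.3 CPM. Without lacZ2 replicate 1 the median of this list was -0.42.

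Gluconeogenesis and FoxO1 targets had 11 of 23 members lower and 0 higher (all genes: 9.97% and 11.7%), with a median of -0.33, and -0.27 without lacZ2 replicate 1. Pck1, the cytosolic phosphoenolpyruvate carboxykinase, had 1482 and 1711 CPM in lacZ1 against 567 and 978 CPM in lacZ2, and Irs2, an insulin receptor substrate, had 22.5 and 13.5 against 11.4 and 8.03 CPM. G6pc, the glucose-6-phosphatase that acts beside Pck1, overlapped, with 199 and 243 against 86.5 and 247 CPM. Periportal hepatocyte markers, which share Pck1 and Sds with the gluconeogenesis list, had 9 of 14 members lower, a median of -0.57 and -0.27 without that library. For urea cycle and amino acid catabolism the count was 17 of 31 and the median -0.46, which became -0.14 without that library. The list includes Got1 and Cth, the cystathionine gamma-lyase, which had 153 and 192 against 97.5 and 116 CPM.

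The cell cycle list had 20 of 44 members lower and 1 higher (all genes: 9.97% and 11.7%), with a median of -0.30 and of -0.33 without lacZ2 replicate 1. Ccnb1, a mitotic cyclin, had 57.4 and 90.4 CPM in lacZ1 against 35.2 and 50.4 CPM in lacZ2, and Ccnb2 had 25.5 and 45.9 against 22.3 and 21.6 CPM. Ccnd1, the cyclin of entry into the cycle, was the member that lay higher in both, with 40.8 and 42.9 against 65.1 and 57.5 CPM.

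Other metabolic lists changed the sign of their median without lacZ2 replicate 1. Fatty acid oxidation and ketogenesis had 3 of 30 members higher and 1 lower, near or below the shares over all genes (11.7% and 9.97%), and its median went from -0.04 to 0.21. The median of cholesterol synthesis and uptake went from -0.22 to 0.08, that of xenobiotic cytochrome P450 genes from -0.29 to 0.10 and that of phase II conjugation from -0.17 to 0.08.

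Of the 50 lists, 42 had at least 10 tested members, and 24 of these had medians within 0.2 of 0. Interferon-induced genes had a median of 0.05, Kupffer cell and macrophage markers -0.03, endothelial markers -0.03 and stellate cell and fibroblast markers 0.05. Endoplasmic reticulum chaperones, the family to which Dnajb9 belongs, had a median of 0.03, and mTOR complexes and insulin signalling, with Rictor, one of -0.10. The medians ran from -0.62 for major urinary proteins to 0.42 for structural and nuclear noncoding RNAs. Without lacZ2 replicate 1, these became -0.22 and -0.15, and 15 of the 42 medians had the opposite sign. The medians then ran from -0.74 for neutrophil markers to 0.55 for T and NK cell markers, which had -0.52 and 0.09 with all libraries. The lists below -0.3 numbered 10, and 3 of these stayed below it without that library, namely lipogenesis, cell cycle and neutrophil markers. Few counts lay behind several of these medians. A mean of at least 10 CPM in the controls was reached by 2 of 10 tested neutrophil markers. It was reached by 3 of 21 T and NK cell markers and 4 of 12 major urinary proteins. For lipogenesis it was 22 of 23 and for cell cycle 42 of 44.

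**Figure D3:**
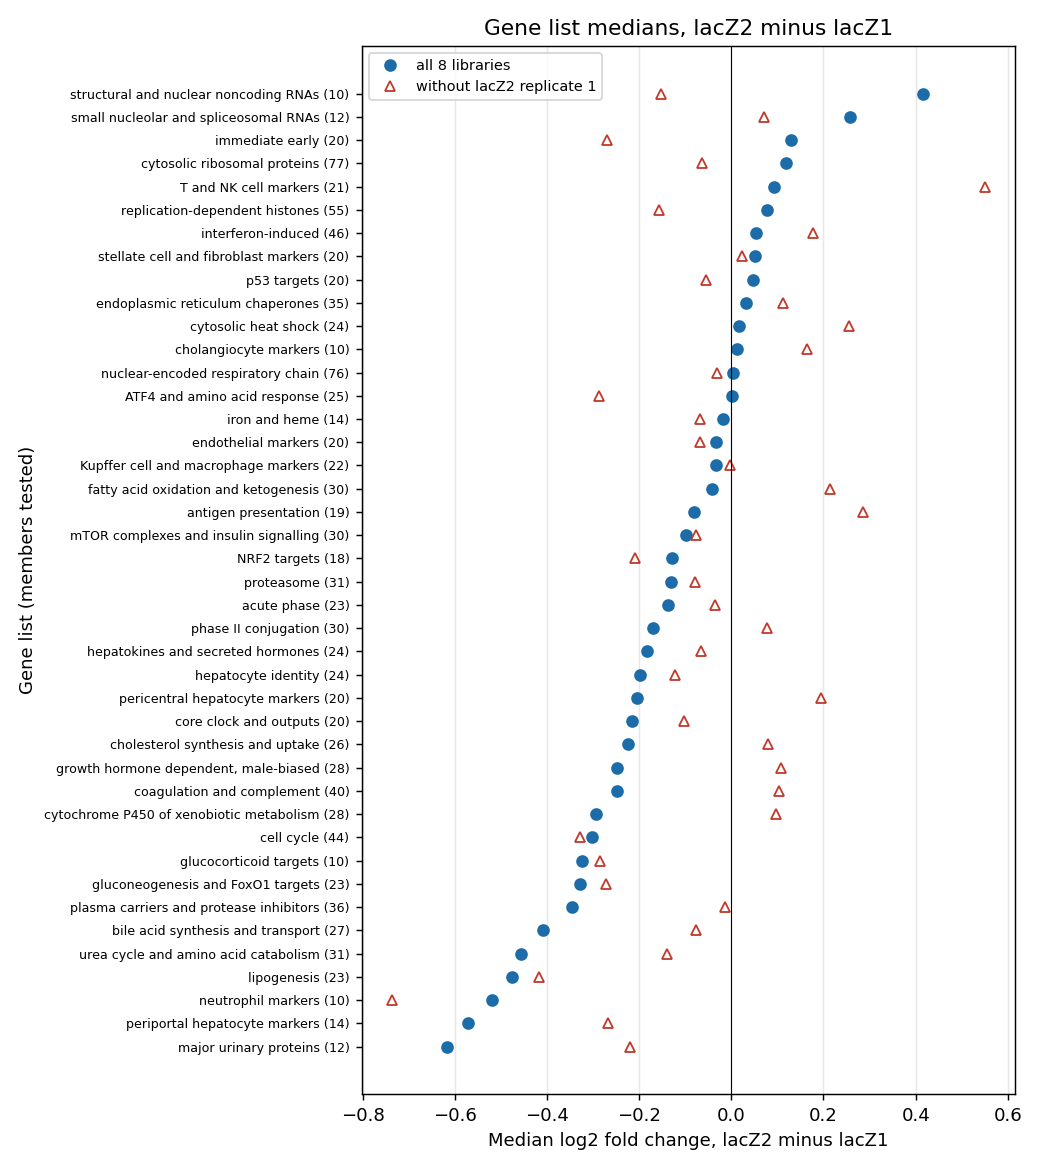
Points give the median log2 fold change (lacZ2 minus lacZ1) of each list with at least 10 tested members, with the number tested in brackets, from all 8 libraries (filled circles) and without lacZ2 replicate 1 (open triangles). Lipogenesis lies at -0.48 and -0.42, whereas plasma carriers and protease inhibitors move from -0.35 to -0.01.

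Libraries of 1 group differed as much as libraries of different groups. Over 9366 genes with a mean of at least 10 CPM in the controls, the lacZ2 replicates were the most distant of the 6 pairs, with 296 genes more than 2-fold apart (3.16%) and a standard deviation of 0.441 for the log2 ratio. The closest pair crossed the groups: lacZ1 replicate 2 and lacZ2 replicate 2 had 29 such genes (0.310%) and a standard deviation of 0.251. The lacZ1 replicates had 70 (0.747%). The other pairs across the groups had 185 (1.98%) for replicate 1 of both groups, 135 (1.44%) for lacZ1 replicate 1 with lacZ2 replicate 2, and 271 (2.89%) for lacZ1 replicate 2 with lacZ2 replicate 1. The difference between the lacZ1 replicates followed gene properties, with a Spearman correlation across 9320 genes of -0.37 with GC content and -0.41 with exon length, against -0.23 and 0.03 between the lacZ2 replicates. Genes are not independent replicates, and the part of these properties in any result was not tested.

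**Figure D4:**
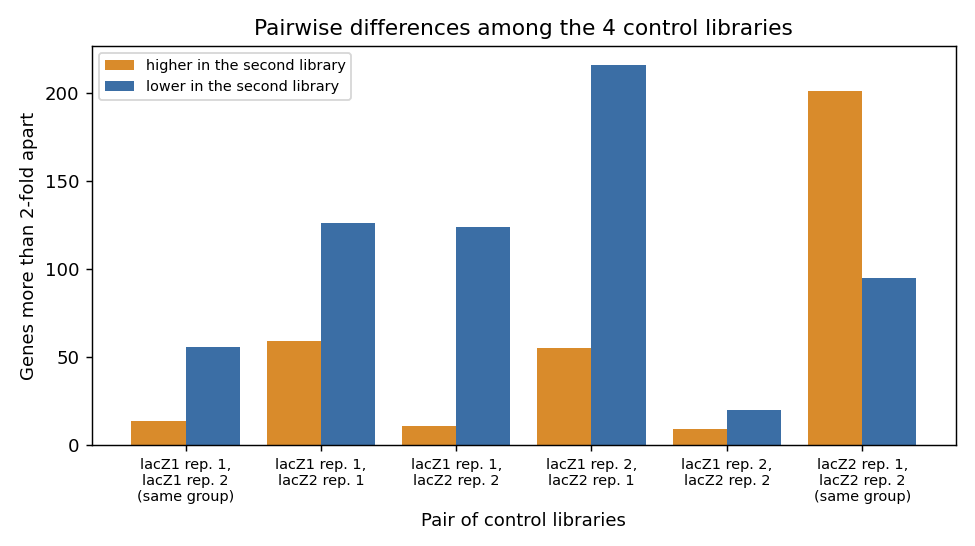
Bars count the genes more than 2-fold higher (orange) or lower (blue) in the second library named than in the first, for the 6 pairs of control libraries, over 9366 genes. The pair within lacZ2 has the most (201 and 95), and lacZ1 replicate 2 with lacZ2 replicate 2 the fewest (9 and 20).

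Within lacZ1 the largest ratios between replicates were small in number and size. Hist1h4a, a histone H4 gene with 40.4% shared sequence, had 19.3 and 70.6 CPM in replicates 1 and 2. Cyp2b9, a P450 known to be higher in female liver, had 10.7 and 38.7 CPM, and Gm3776, with 92.5% shared sequence, 16.0 and 56.8 CPM. Erdr1 ran the other way with 47.0 and 13.2 CPM, as did Celsr1, an adhesion receptor of planar cell polarity, with 26.0 and 8.70 CPM.

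Within lacZ2 the largest ratio was that of H19, an imprinted noncoding RNA of the fetal liver on chromosome 7 (142575529 to 142578143, minus strand). It had 42.2 and 48.7 CPM in lacZ1 against 483 and 38.6 CPM in lacZ2, so that lacZ2 replicate 1 was 12.3-fold above its partner while the other 3 controls were alike. The log2 fold change of 2.52 for H19 had a standard error of 0.84 and became -0.23 without that library. In the hairpin libraries H19 had 0.9 to 1.7 CPM.

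The other 4 of the 5 largest ratios were hepatocyte genes that were low in lacZ2 replicate 1. Oat, the ornithine aminotransferase, and Slc1a2, a glutamate transporter, mark hepatocytes around the central vein. Oat had 149 and 148 CPM in lacZ1 against 22.9 and 236 CPM in lacZ2, 10.1-fold apart within lacZ2. Slc1a2 had 77.7 and 68.3 against 12.2 and 112 CPM. The carboxylesterase Ces3a, with 25.6% shared sequence, had 330 and 402 against 86.3 and 580 CPM, and Cyp2e1, the ethanol-oxidising P450, had 572 and 682 against 176 and 1029 CPM. In all 4 genes, the lacZ2 libraries lay on either side of both lacZ1 libraries, and the log2 fold change between the groups was within its standard error of 0, at -0.19 for Oat and -0.06 for Cyp2e1.

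**Figure D5:**
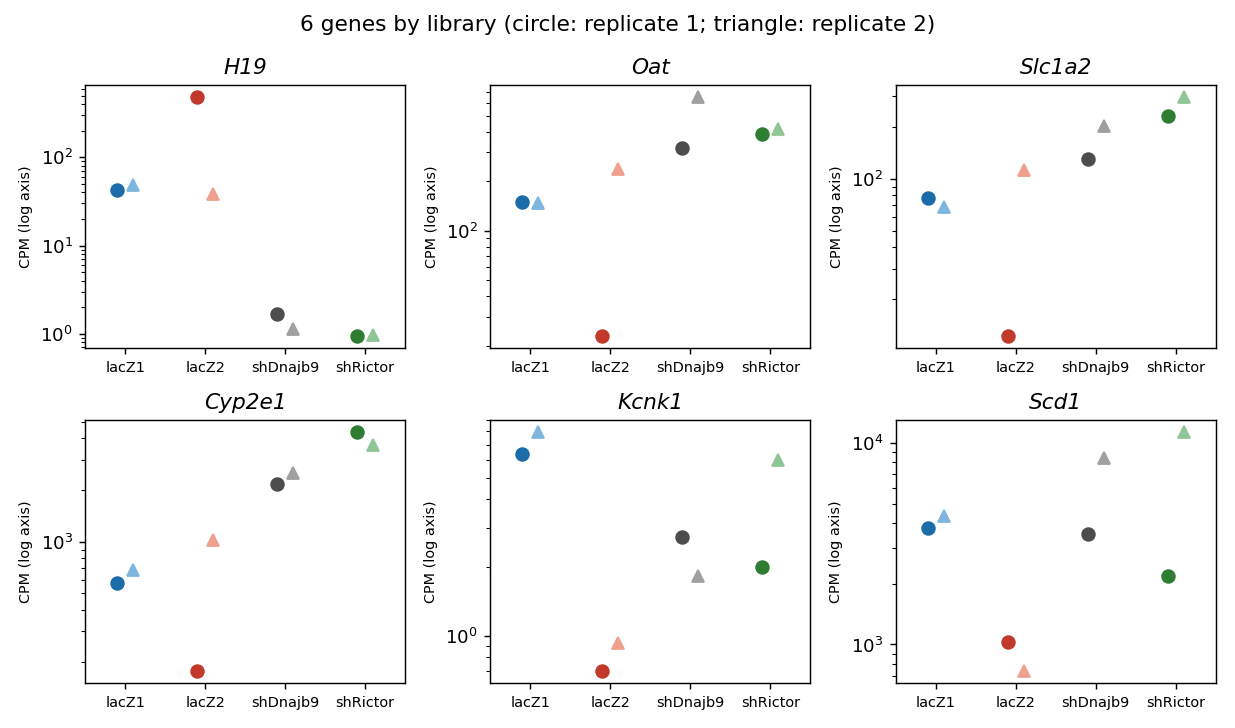
CPM (log axis, separate for each gene) of 6 genes in the 8 libraries, by group, with circles for replicate 1 and triangles for replicate 2. For H19, Oat, Slc1a2 and Cyp2e1 the lacZ2 replicate 1 point lies apart from the other 3 controls, whereas for Kcnk1 and Scd1 both lacZ2 points lie below both lacZ1 points.

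Across the 9366 genes, lacZ2 replicate 1 was more than 2-fold below all 3 other controls in 88 genes (0.940%) and above them in 13 (0.139%), while each of the other 3 libraries stood apart in this way in 0 to 4 genes per direction. The 88 included 12 of 36 plasma carriers and protease inhibitors, 8 of 31 genes of the urea cycle and amino acid catabolism, 7 of 26 of bile acid synthesis and transport, and 6 of 22 xenobiotic P450 genes, counted among members with at least 10 CPM. Serpina6, the corticosteroid-binding globulin, had 35.0 and 37.0 against 9.53 and 38.2 CPM. Tat, the tyrosine aminotransferase, had 637 and 887 against 197 and 630 CPM. Slc10a1, the bile acid importer, had 81.0 and 113 against 25.8 and 104 CPM, and Cyp7a1, the rate-limiting enzyme of bile acid synthesis, 55.2 and 99.2 against 22.4 and 91.8 CPM. The 88 genes hold both zones of the lobule, with 4 of 15 pericentral and 3 of 13 periportal markers. These genes were chosen by this library's values, which are a description with no test.

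The lowest of the 4 controls was lacZ2 replicate 1 in 38.1% of the 9366 genes, and it was the highest in 23.5%. It was lowest in 37 of 40 coagulation and complement genes, 29 of 31 genes of the urea cycle and amino acid catabolism, 28 of 36 plasma carriers and 19 of 22 xenobiotic P450 genes. Antigen presentation genes followed with 16 of 19. Hepatocyte identity genes were lowest there in only 14 of 24. Endothelial markers were lowest there in 10 of 20, Kupffer cell and macrophage markers in 6 of 18 and stellate cell and fibroblast markers in 6 of 17. It was highest in 42 of 74 cytosolic ribosomal proteins, 11 of 19 p53 targets, 10 of 14 immediate early genes and 5 of 8 structural and nuclear noncoding RNAs. Among single genes above the other 3, Sprr1a, a gene of the epidermal envelope, had 5.84 and 6.43 against 34.7 and 6.09 CPM. Pdk4, the kinase that holds pyruvate dehydrogenase inactive, had 16.8 and 17.2 against 52.6 and 17.1 CPM, and Gpx3, a secreted glutathione peroxidase, had 10.3 and 8.82 against 28.9 and 10.2 CPM. This library also had the fewest gene counts, the largest share of reads outside genes and the most Rpph1 of the controls, and their part in these values was not tested.

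Promoter windows of the 88 genes were poor in CG dinucleotides. Of these genes 63 had RefSeq windows, 80 in all, with a median of 4 CG dinucleotides, against 19 over the tested genes. C/EBP-type matches occurred in 19 of the windows (23.8%) against 8.93% of those of the tested genes. HNF1-type matches occurred in 4 (5%) against 0.571%, and TATAAA boxes in 5 (6.25%) against 1.38%. These traits were not particular to the 88. Windows of plasma carriers and protease inhibitors, a list with 12 members among the 88, also had a median of 4 CG dinucleotides. Their shares were 32.4% for C/EBP-type matches, 10.8% for HNF1-type matches and 10.8% for TATAAA boxes. Alb and Cyp2e1 are among the 88, and so is Oat, whose window printed above is rich in CG.

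The hairpin livers of the same ages, which share no library with the controls, were compared in the same way. For shRictor minus shDnajb9 the same edgeR fit called 26 higher and 42 lower genes, 68 in all (0.494%), at an adjusted p under 0.05. Age, hairpin target and experiment cannot be told apart in this pair. In the controls, 33 of the 68 moved in the same direction (48.5%, against 45.0% over all tested genes). The correlation of the fold changes across genes was -0.07, given as a description. As 0 genes were called in the controls, no gene could be called in both pairs. Of the 33, 16 also had no overlap between lacZ1 and lacZ2. Over all tested genes, 11.7% lay higher and 9.97% lower in lacZ2 without overlap. Osbpl3, an oxysterol-binding protein relative, had 40.5 and 32.05 CPM in lacZ1, 59.3 and 57.3 in lacZ2, 2.93 and 5.36 in shDnajb9 and 24.1 and 41.1 in shRictor, so the older group was higher in both pairs. Rsad2, an interferon-induced antiviral enzyme, had 52.8 and 59.2 CPM in lacZ1 against 58.0 and 55.0 CPM in lacZ2, against 188 and 105 in shDnajb9 and 36.4 and 38.9 in shRictor, and so was even over the controls.

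The test of the difference between the age contrasts called 1 gene of 13767 (0.00726%). Slc17a8, a vesicular glutamate transporter, had 31.0 and 35.0 CPM in lacZ1 against 31.7 and 39.5 CPM in lacZ2, which overlap, and 9.63 and 10.2 in shDnajb9 against 79.3 and 88.4 in shRictor, which do not. The difference, lacZ2 minus lacZ1 less shRictor minus shDnajb9, was -2.97 with a standard error of 0.33 (edgeR, adjusted p = 0.0085). It was lost without lacZ2 replicate 1 (adjusted p = 0.163) and without lacZ1 replicate 2 (adjusted p = 0.0592), at -2.83 and -2.89.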

How the data were processed

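The authors deposited raw read counts per gene symbol, 1 table per library; per the submitters' processing notes, cutadapt, HTSeq and mouse build mm10 were used. The aligner, versions, annotation and strand setting are not given in the sources used here, so counts can include antisense or overlapping transcripts. Reads left unassigned, 48.42% to 57.8% of all counted reads in the control libraries, stayed out of library sizes, and 27 entries named as calendar dates were kept in totals and not assigned to genes.

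Symbols were matched to GENCODE M21 (GRCm38) for 98.4% of entries, for exon length, GC content and position. A gene is called uncertain where 20% or more of its 50-base stretches occur in another gene. Counts were tested in R 4.3.3 with edgeR 4.0.16 (filterByExpr with a minimum count of 10, TMM scaling, robust quasi-likelihood, 4 group means on all 8 libraries, 4 residual degrees of freedom). Groups of 2 allow no exact permutation p below 0.333. Replicates of lacZ1 and lacZ2 differed by more than counting error (chi-square per degree of freedom 18.8 and 54.2). Ratios between libraries used log2(CPM + 0.5). Sequencing depth was 6727294 to 10464225 gene counts per control library. The code was tested on simulated data.

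Named genes were the 20 highest by level, the 5 largest replicate ratios of each control group with at least 10 CPM in it, defining cell markers, up to 12 called genes per direction, up to 6 genes called in the same direction in both age contrasts, and members of lists with 3 or more called genes. The last 3 parts of the rule gave no gene, and a marker that the rule names is not reported here. Genes named for a small unadjusted p, as list examples or as standing apart in 1 library, and those named from the hairpin pair, were picked with their values in view. The members and lists were chosen with earlier results of these data known. Alternatives were RLE size factors, total count, no filter, 2 CPM in 2 libraries, non-robust moderation, DESeq2 1.42.0, limma-voom (limma 3.58.1), a replicate block, a fit to just the 4 libraries of a contrast, a 1.5-fold test, leaving out the 10 most abundant genes or noncoding RNAs, length and GC offsets, and leaving out each library. Replicate numbers do not pair samples in the labels.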

Additional observations from a re-analysis of the deposited data

Results flagged for a closer look

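For Slc17a8, the lacZ2 minus lacZ1 contrast differed from the shRictor minus shDnajb9 contrast by the test of the difference itself, which gave a log2 value of -2.97. The contrast was 0.11 in the controls and 3.08 in the hairpin libraries, where age, hairpin target and experiment cannot be told apart. The edgeR call was lost without lacZ2 replicate 1 (adjusted p = 0.163) and without lacZ1 replicate 2 (adjusted p = 0.0592). Groups of 2 libraries are too small for a test of single libraries as outliers.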

How the results depend on the processing

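For lacZ2 minus lacZ1, 16 of 21 alternatives also called 0 genes. Without the filter on low counts 13 were called (9 higher, 4 lower), where the fit had a median of 74136 degrees of freedom against 13.1. DESeq2 and the fit to only the 4 libraries compared called 1 each, Kcnk1. Leaving out 1 library at a time called 0 to 1 genes, namely H19 without lacZ2 replicate 2 and Kcnk1 without shRictor replicate 1.

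For shRictor minus shDnajb9, the 68 calls became 21 with the total count only, 1109 with no filter, 440 with DESeq2, 18 against a 1.5-fold change, 126 with length and GC offsets, 24 in the 4 libraries alone, and 8 (without shRictor replicate 1) to 1094 (without shDnajb9 replicate 2) on leaving out a library. For the difference between the age contrasts, the 1 call became 395 with no filter, 45 with DESeq2, and 0 (without lacZ1 replicate 2 or lacZ2 replicate 1) to 19 (without shDnajb9 replicate 2). The cause of these shifts was not tested.

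The labels do not pair samples by replicate number. Correlations of the deviations of same-numbered libraries ran from -0.542 (lacZ1 with shRictor) to 0.506 (shDnajb9 with shRictor) over the 6 pairs of groups. For lacZ1 with lacZ2 the correlation was 0.261. Whether libraries of the same number shared a step of handling was not tested. With the number as a replicate block, the calls were 0 for lacZ2 minus lacZ1, 104 for shRictor minus shDnajb9 and 3 for the difference between the age contrasts.

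Of 31 genes followed over 17 alternatives, 7 of 526 values changed sign, all in genes of large spread within lacZ2. On leaving out a library, the log2 fold change ran from -0.23 to 3.39 for H19, -2.71 to 0.68 for Oat, -2.59 to 0.62 for Slc1a2, -2.10 to 0.67 for Ces3a and -1.84 to 0.72 for Cyp2e1, with the sign change in each without lacZ2 replicate 1, and for Ces3a and Cyp2e1 also without lacZ1 replicate 2. Of 831 list medians, 59 moved by more than the spread between replicates. Where a group was left with 1 library, it was assumed to vary like the others. Groups of 2 libraries limit what could be called.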
